A study of Homo sapiens with 6 samples.

Results

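A set of 10 genes was examined here that Wnt signalling is known to switch on, namely AXIN2, LGR5, ASCL2, RNF43, ZNRF3, NKD1, TCF7, LEF1, NOTUM and SP5. They were chosen by name, and their rows were found by matching Ensembl gene IDs to symbols, which gave 10 rows of the 60483 gene IDs listed. RNA-seq counts of reads per gene were available from 6 libraries of total RNA of 253J, a line of human bladder cancer cells kept in RPMI-1640 with fetal bovine serum. The 3 control libraries (replicates 1, 2 and 3) came from cells given control siRNA. The 3 siFTO libraries (replicates 4, 5 and 6) came from cells given siRNA against FTO, the enzyme that removes the methyl mark m6A from RNA. All 6 are labelled with the same cell line and the same span of passages, whereas the methods of the study describe shRNA vectors, so the labels are followed here for the agent. No source used here says that the libraries of a group are from separate cultures, and the p-values then reflect no more than the spread among these libraries, which may be technical.

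In Wnt signalling, a secreted Wnt protein binds Frizzled and LRP receptors, which blocks the complex that destroys beta-catenin. Beta-catenin then enters the nucleus and acts through TCF and LEF proteins on DNA. Several of the genes it switches on act back on the pathway. AXIN2 is a scaffold of the destruction complex, RNF43 and ZNRF3 are membrane ubiquitin ligases that remove Frizzled, NKD1 binds dishevelled and NOTUM is a secreted enzyme that removes the lipid from Wnt. LGR5 is a receptor of R-spondins, which protect Frizzled from RNF43 and ZNRF3, and both LGR5 and the transcription factor ASCL2 are known for marking stem cells of the intestinal crypt. TCF7 and LEF1 are themselves DNA-binding partners of beta-catenin, and SP5 is a zinc finger transcription factor.

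SP5 is shown by the sequence upstream of its start, because it had the largest fitted fall of the 10 genes and because short words known to be bound by TCF and LEF proteins recur there. The words searched were CTTTGAT and CTTTGAA on both strands, in the 250 bases before the annotated start. The SP5 window lies at chr2:170715087-170715336 (GRCh38.p14, plus strand, sequence from RefSeq) and reads as follows, 5′ to 3′, with the matches in capitals.
SP5: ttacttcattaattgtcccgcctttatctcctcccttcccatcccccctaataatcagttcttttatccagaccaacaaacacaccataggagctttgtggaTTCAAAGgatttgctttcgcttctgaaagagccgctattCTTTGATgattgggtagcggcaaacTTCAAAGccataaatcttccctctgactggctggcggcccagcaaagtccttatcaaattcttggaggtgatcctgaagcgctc
The 3 matches begin 148, 109 and 84 bases before the RefSeq start, which lies just upstream of the GENCODE start of SP5 used for its position further on, the first and last being CTTTGAA on the reverse strand and the middle one CTTTGAT on the forward strand, and they do not overlap. At least 1 match was found in 2086 of 35116 promoter windows (5.94%), and at least 3 in 7 windows (0.0199%). The SP5 window was chosen partly for its matches, so these shares are description and do not test SP5. Windows were available for 4 of the 10 genes, 6 windows in all, and those of RNF43, TCF7 and LEF1 held neither of the words searched. Other words that TCF and LEF proteins may bind were not searched, so these windows are not shown to lack them. A match describes the letters of this window and shows no binding.

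The total count was 10991789 to 19891269 in the controls and 13162731 to 15709975 in the siFTO libraries. Levels are given as CPM, the usual count relative to library size, here scaled by TMM, a factor that compensates for a few genes taking a large share of a library. FTO, the targeted gene, stood at 31.8, 21.4 and 31.2 CPM in control replicates 1, 2 and 3 and at 20.2, 20.7 and 15.7 CPM in siFTO replicates 4, 5 and 6, without overlap. The fitted change was -0.57 on the log2 scale with a standard error of 0.16 (adjusted p = 0.0209 from edgeR), and it missed the threshold when control replicate 1 or 3 was left out (adjusted p of 0.107 and 0.113) or library totals alone were used as scaling (0.0576). Of 14 markers of the bladder lining, 3 (FOXA1, PPARG and ELF3) reached 10 CPM in every control, and the 5 uroplakins, its defining proteins, were at most 2.68 CPM there. Of 12 markers of intestinal epithelium, 7 reached 10 CPM in every control, with LGALS4 at 317 to 369 CPM and VIL1 at 286 to 311 CPM, so the labelled cell type was not borne out by its defining markers. Fibroblast markers summed to 922 and 1098 CPM in siFTO replicates 4 and 5, against 21.4 CPM in replicate 6 and 15.6 to 16.7 CPM in the controls, and leukocyte markers to 74.5, 88.3 and 7.29 CPM against 4.50 to 6.05 CPM. In each of replicates 4 and 5, at least 10 CPM was reached by 3 of 11 fibroblast markers. These were VIM (636 and 730 CPM), COL1A1 (151 and 197 CPM) and COL1A2 (121 and 156 CPM). The rest, named after their values were seen, were low there. FAP stood at 4.53 and 5.04 CPM, DCN and LUM at most at 1.41 CPM, and COL3A1, THY1 and PDGFRA at most at 0.141 CPM. PDGFRB, at 6.93 and 6.78 CPM, lay within the range of the controls, and POSTN was at 0 in every library. Of 13 leukocyte markers 1 reached 10 CPM in both, CD74 at 61.1 and 75.3 CPM, while CD3E, CD3D and MS4A1 were at 0 in every library. Replicates 4 and 5 therefore stood apart, results are also given without them, and the part of these markers in any result was not tested. In bulk RNA, fewer cells of a type and less RNA per cell cannot be told apart.

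The question put to the controls was how strongly each of the 10 genes is present before FTO is lowered. Levels of different genes were compared per length, as counts per kilobase of annotated exon, scaled so that each library sums to the same total over all genes with a length (TPM). AXIN2 and RNF43 were by far the most abundant. AXIN2 stood at 185, 125 and 200 TPM in control replicates 1, 2 and 3, at or above 96.5% of genes with a count in the controls. RNF43 stood at 127, 108 and 125 TPM, at or above 94.8% of those genes. The ranges of these 2 genes overlapped, and both lay above every other gene of the group.

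The stem cell factor ASCL2 came next, at 24.6, 33.7 and 39.3 TPM, followed by TCF7 at 16.5, 12.4 and 16.8 TPM. NOTUM (9.04, 12.0 and 9.28 TPM) and LGR5 (9.39, 5.73 and 10.3 TPM) overlapped each other, and LGR5 overlapped SP5 (6.02, 5.94 and 6.68 TPM). NKD1 (2.85, 2.37 and 3.44 TPM) and LEF1 (2.72, 1.80 and 3.30 TPM) overlapped each other and lay below SP5. The lengths come from all exons annotated for a gene, 17425 bases for NKD1 and 10063 for TCF7, so the place of a gene with rarely used exons may be too low. With the length of the longest transcript, a choice made after seeing the data, NKD1 and LEF1 changed places and the other places were the same. The members did not vary in parallel among the controls. Control replicate 2 had the lowest CPM of the 3 for AXIN2, LGR5, RNF43, NKD1, TCF7 and LEF1, the highest for NOTUM, and the middle one for ASCL2 and SP5.

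**Figure D1:**
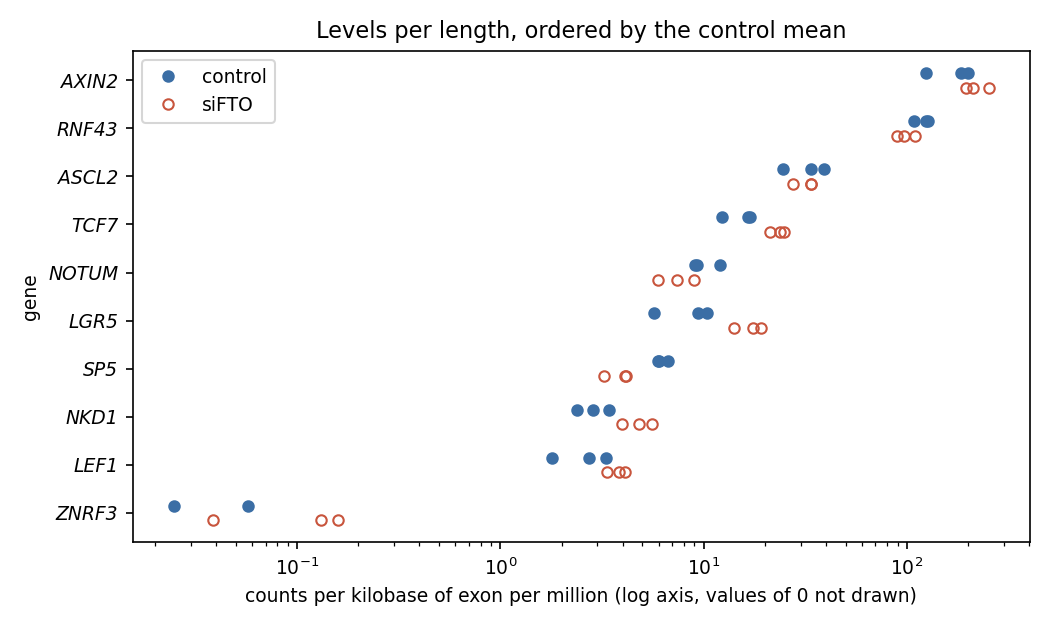
Counts per kilobase of annotated exon (TPM) of the 10 Wnt feedback and stem genes on a log axis, 1 row per gene in the order of the control mean, with filled points for the 3 control libraries and open points for the 3 siFTO libraries. AXIN2 and RNF43 lie above 100 in every control, while ZNRF3, whose value of 0 in control replicate 1 is not drawn, lies below 0.2 in every library.

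ZNRF3, the homologue of RNF43 with the same known task, was listed with almost no counts. It had 0, 2 and 1 counts in control replicates 1, 2 and 3 and 1, 4 and 4 counts in siFTO replicates 4, 5 and 6, fell under the filter on low counts and was not tested. The ligase pair was thus listed very unequally, with RNF43 at 3072 to 5445 counts in the same controls. ZNRF3 lies on chromosome 22 from 28883592 to 29057487 (GENCODE 29 on GRCh38, plus strand), and its neighbours, looked up after its values were seen, were near empty as well. The nearest protein-coding gene before it, XBP1, a transcription factor of the unfolded protein response, and the 2 after it, C22orf31 and KREMEN1, a co-receptor of the Wnt antagonist DKK1, were listed at 0 in all 6 libraries.

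Beyond them, counts were found on both sides. CCDC117 had 23 to 41 counts in the controls and HSCB had 114 to 214, while on the other side EMID1 had 322 to 603 and EWSR1 had 5006 to 9280. A 0 need not mean a silent gene in these files, since EEF1G, a subunit of a translation elongation factor that every cell uses, was also listed at 0 in all 6 libraries. The cause of the low ZNRF3 counts was not tested.

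**Figure D2:**
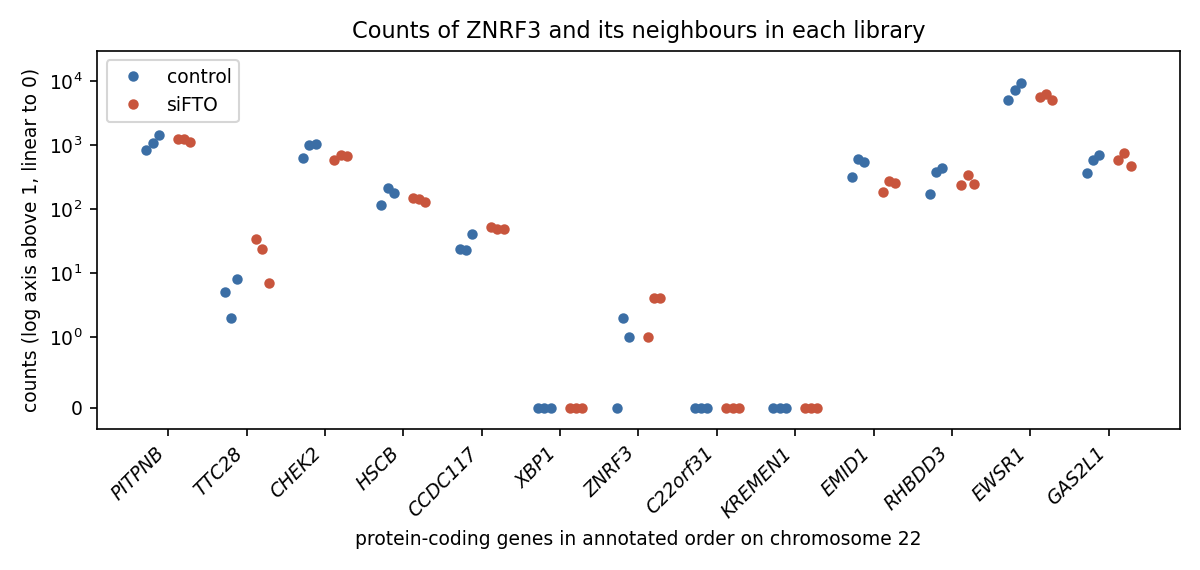
Counts of ZNRF3 and the 6 protein-coding genes annotated on either side of it on chromosome 22, 1 point per library, on an axis that is logarithmic above 1 and linear down to 0. XBP1, C22orf31 and KREMEN1 are at 0 in all 6 libraries and ZNRF3 is at 0 to 4, while CHEK2 has 588 to 1057 counts and EWSR1 5006 to 9280.

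The second question was which of the 10 genes differ between siFTO and control cells. They did not move together. LGR5, NKD1 and TCF7 rose, RNF43, NOTUM and SP5 fell, and AXIN2, LEF1 and ASCL2 did not pass the test. Of the 9 genes tested, 3 were thus higher, where 19.5% of the 14965 genes tested were, and 3 were lower, where 17.9% were, at an adjusted p under 0.05 from edgeR's quasi-likelihood test with Benjamini-Hochberg adjustment over all genes. In CPM the libraries of the groups did not overlap for 3 genes in each direction, and these were the same 6 genes. Over all genes tested, 25.8% were higher and 25.6% lower without overlap. The median log2 fold change of the 9 was 0.16, and that of all genes tested was 0.0057. The counts depended on single libraries. Without control replicate 1 none was higher and 2 were lower, without control replicate 2 or siFTO replicate 4 it was 1 higher, without control replicate 3 it was 1 lower, and without siFTO replicates 4 and 5 together, which leaves 1 library against 3 and was decided on with the data seen, it was 2 higher (LGR5 and NKD1) and none lower in edgeR. At an unadjusted p under 0.05 there were 3 higher without control replicate 1, and 3 lower without siFTO replicates 4 and 5. That last fit has no spread within the siFTO group: it takes the spread from the controls alone and assumes that the lone siFTO library varies as they do, so its p-values, also where given below, do not support a call on their own. In it 970 genes were higher and 926 lower, fewer than with all libraries.

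**Figure D3:**
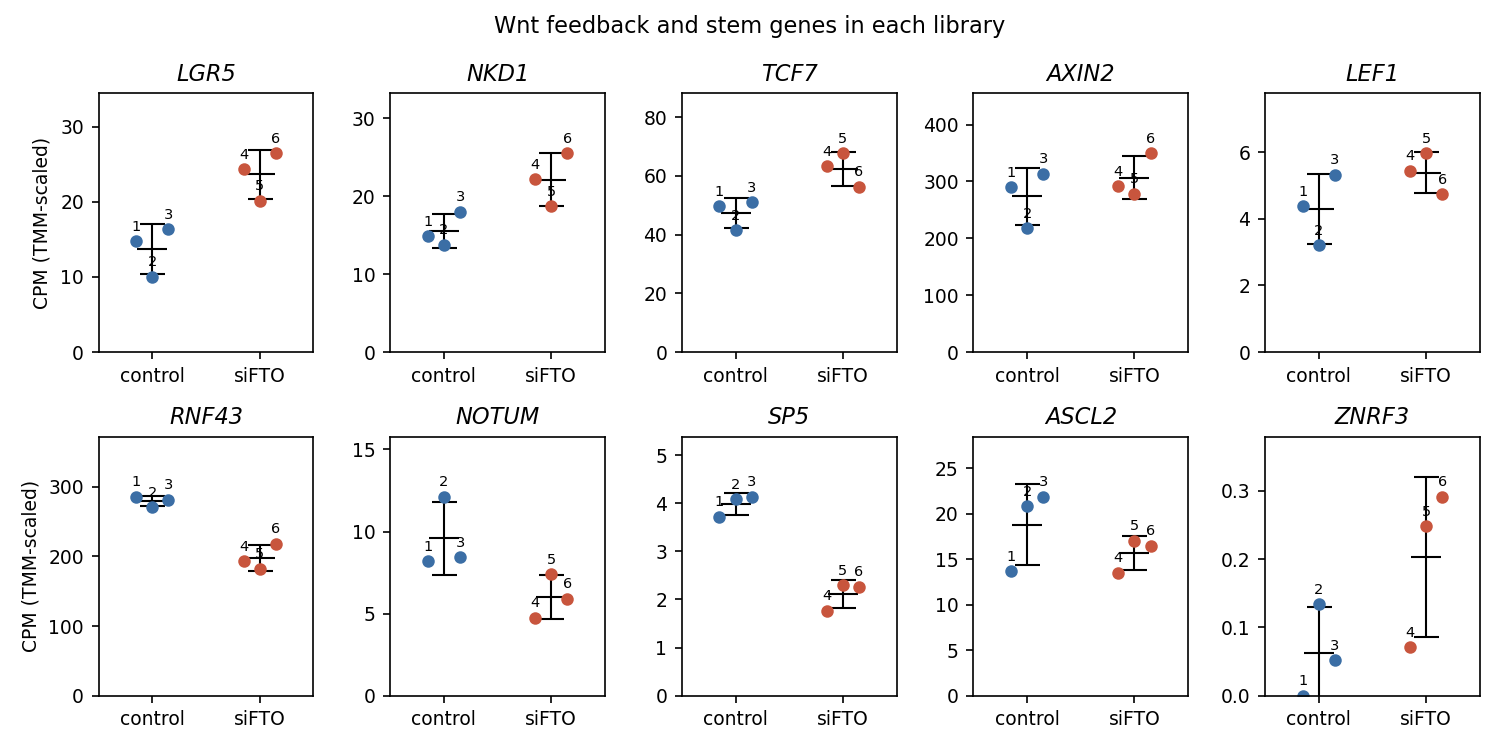
CPM on TMM-scaled library sizes of each of the 10 genes in the 3 control and 3 siFTO libraries, on axes that start at 0. Points are libraries with their replicate numbers, with bars for the group mean and SD. LGR5, NKD1 and TCF7 are higher in each siFTO library than in each control, and RNF43, NOTUM and SP5 are lower in each.

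Among receptors and their ligases, LGR5 and RNF43 changed in opposite directions. LGR5 (ENSG00000139292.11, chromosome 12 from 71439770 to 71586310, GENCODE 29 on GRCh38) stood at 14.8, 10.0 and 16.3 CPM in the controls and at 24.3, 20.1 and 26.5 CPM in siFTO replicates 4, 5 and 6. Every siFTO library lay above every control, and replicate 6 was the highest of all. Its log2 fold change was 0.78 (standard error 0.18, adjusted p = 0.00755 from edgeR), and it was 0.95 without replicates 4 and 5 (adjusted p = 0.0157). LGR5 passed in 14 of 15 alternative fits, the one with a lone siFTO library included, and missed the threshold without control replicate 1 (adjusted p = 0.0538, in a range of 0.000206 to 0.0538). Its annotated span overlaps that of TSPAN8 on the other strand, and with no strand setting stated for the counting, reads of such pairs cannot be told apart.

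RNF43 (ENSG00000108375.11, chromosome 17 from 58352500 to 58417595) stood at 286, 271 and 281 CPM in the controls and at 193, 182 and 218 CPM in siFTO replicates 4, 5 and 6. The controls lay close together, the siFTO libraries lay below them, and replicate 6 was the nearest. The annotated span of RNF43 overlaps that of SUPT4H1 on the same strand (1297 to 2586 counts over the 6 libraries), so a strand setting could not tell reads in the shared stretch apart. The log2 fold change was -0.50 (standard error 0.091, adjusted p = 0.00292 from edgeR). RNF43 passed in each fit that left out 1 library (adjusted p of at most 0.0313) and missed the threshold without replicates 4 and 5 together (-0.35, adjusted p = 0.112), the highest of its 15 alternatives, of which 14 passed. In TPM, LGR5 went from 8.49 ± 2.44 to 16.9 ± 2.55 and RNF43 from 120 ± 10.3 to 99.0 ± 10.5 (SD, n = 3), so RNF43 was the more abundant in both groups. TPM is not scaled by TMM, and on that scale the groups overlapped for RNF43. Its siFTO replicate 6 stood at 110 TPM and its control replicate 2 at 108 TPM.

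Inside the cell, NKD1 rose while AXIN2 did not pass. NKD1 (ENSG00000140807.5, chromosome 16 from 50548330 to 50649249) stood at 14.9, 13.8 and 18.0 CPM in the controls and at 22.1, 18.7 and 25.5 CPM in the siFTO libraries. The lowest siFTO library, replicate 5, lay just above the highest control. The log2 fold change was 0.50 (standard error 0.15, adjusted p = 0.0231 from edgeR). NKD1 missed the threshold without control replicate 1 or 2 or siFTO replicate 4 or 6 (adjusted p of 0.109, 0.108, 0.0702 and 0.0532), and passed without replicates 4 and 5 together (0.71, adjusted p = 0.0260).

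AXIN2 (ENSG00000168646.11, chromosome 17 from 65528563 to 65561647) stood at 290, 218 and 314 CPM in the controls and at 291, 278 and 350 CPM in the siFTO libraries, so the groups overlapped. Its log2 fold change was 0.16 with a 95% interval of -0.14 to 0.47 (adjusted p = 0.378 from edgeR), and it passed in none of 15 alternatives (adjusted p of 0.156 to 0.910). The interval leaves room for a modest change in either direction.

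Outside the cell, NOTUM fell. NOTUM (ENSG00000185269.10, chromosome 17 from 81952507 to 81961840) stood at 8.19, 12.1 and 8.42 CPM in the controls and at 4.74, 7.40 and 5.90 CPM in the siFTO libraries. Control replicate 2 was the highest by a wide margin, and siFTO replicate 5 came near the other controls. The log2 fold change was -0.67 (standard error 0.21, adjusted p = 0.0327 from edgeR). This was the least stable of the 6 calls, passing in 8 of 15 alternatives, and it was lost without control replicate 1, 2 or 3 or siFTO replicate 4 (adjusted p of 0.0769, 0.161, 0.0822 and 0.124). It was also lost without replicates 4 and 5 together (-0.70, adjusted p = 0.104).

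Among the transcription factors, SP5 fell, TCF7 rose, and LEF1 and ASCL2 did not pass. SP5 (ENSG00000204335.3, chromosome 2 from 170715351 to 170718078), whose upstream sequence is given above, stood at 3.72, 4.09 and 4.13 CPM in the controls and at 1.77, 2.30 and 2.26 CPM in the siFTO libraries. These levels rest on 40, 61 and 80 counts and on 25, 37 and 31 counts, so counting error is larger here than for the genes above. All 3 siFTO libraries lay well below the controls. The log2 fold change was -0.92 (standard error 0.21, adjusted p = 0.00805 from edgeR). The call was lost without control replicate 3 (adjusted p = 0.0516), without replicates 4 and 5 together (-0.82, adjusted p = 0.108) and after a correction for gene length and GC content (-0.55, adjusted p = 0.0562).

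TCF7 (ENSG00000081059.18, chromosome 5 from 134114711 to 134151865) stood at 49.7, 41.6 and 51.0 CPM in the controls and at 63.3, 67.7 and 56.3 CPM in the siFTO libraries. Replicates 4 and 5 were the highest and replicate 6 the nearest to the controls. The log2 fold change was 0.40 (standard error 0.11, adjusted p = 0.0174 from edgeR). It missed the threshold without control replicate 1 or 2 or siFTO replicate 4 or 5 (adjusted p of 0.0669, 0.0693, 0.0606 and 0.0609), and without replicates 4 and 5 together it was 0.25 (adjusted p = 0.307). The spans of TCF7 and SKP1, which lie on opposite strands, overlap in the annotation.

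LEF1 (ENSG00000138795.8, chromosome 4 from 108047545 to 108168956) stood at 4.37, 3.21 and 5.32 CPM in the controls and at 5.45, 5.97 and 4.74 CPM in the siFTO libraries, a log2 fold change of 0.32 with a 95% interval of -0.17 to 0.80 (adjusted p = 0.271 from edgeR). Replicate 6 lay within the range of the controls. ASCL2 (ENSG00000183734.4, chromosome 11 from 2268495 to 2270952) stood at 13.7, 20.8 and 21.9 CPM in the controls and at 13.5, 17.0 and 16.5 CPM in the siFTO libraries, a log2 fold change of -0.27 with a 95% interval of -0.66 to 0.12 (adjusted p = 0.241 from edgeR). Control replicate 1 lay as low as the lowest siFTO library. The estimate for ASCL2 turned to 0.15 after the correction for gene length and GC content (adjusted p = 0.437), and neither LEF1 nor ASCL2 passed in any of 15 alternatives. LGR5 and ASCL2, both crypt stem cell genes, therefore had estimates of opposite sign here, a difference between genes that was not itself tested.

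**Figure D4:**
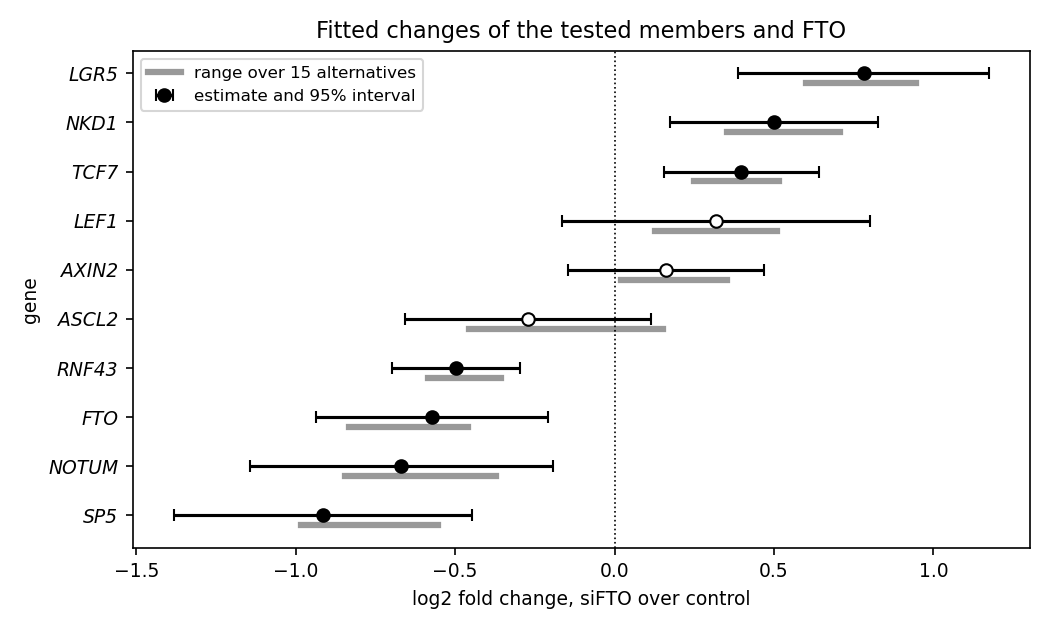
Log2 fold change of siFTO over control for the 9 tested genes and FTO. Points are the estimates with 95% intervals, filled where the adjusted p is under 0.05, and grey bars span the estimates of 15 alternative fits. LGR5 at 0.78 and SP5 at -0.92 lie at the ends, and the grey bar of ASCL2 alone crosses 0.

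The rest of the Wnt pathway was read from 7 lists by role, 111 genes in all, of which 79 were tested. Of these, 17 were higher and 11 lower, shares near those of all genes tested (19.5% higher and 17.9% lower), with a median log2 fold change of 0.087. The counts by role that follow are to be read against the same 2 shares, and a difference between roles was not tested. Without siFTO replicates 4 and 5 edgeR gave 9 higher and none lower of 80 tested, with 8 lower at an unadjusted p under 0.05.

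Of 17 receptors, 14 were tested, 4 were higher and 2 were lower (all genes 19.5% and 17.9%), or 2 and 2 once length and GC content were corrected for. LGR4, the relative of LGR5 that also binds R-spondins, stood at 54.8, 41.2 and 52.9 CPM in the controls and at 63.9, 65.1 and 68.6 CPM in the siFTO libraries (log2 fold change 0.41, adjusted p = 0.0179 from edgeR). The orphan receptor kinase ROR1 (1.25) and the Frizzled receptor FZD1 (0.70) also rose, whereas FZD7 (-0.38) and the co-receptor LRP5 (-0.33) fell. LRP6, a co-receptor as LRP5 is and named after its values were seen, rose (0.33, adjusted p = 0.0232 from edgeR). Without control replicate 1, ROR1 was the 1 receptor that passed as higher. ROR1 passed in 15 of 15 alternatives. LGR4, FZD1, FZD7 and LRP5 each missed the threshold without control replicate 1 and without siFTO replicates 4 and 5, and also without control replicate 3 for LGR4, control replicate 2 for FZD1, siFTO replicate 4 for FZD7, and control replicate 2 or 3 or siFTO replicate 4 for LRP5.

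All 17 genes of dishevelled and the destruction complex were tested, and 3 were higher and 2 lower (all genes 19.5% and 17.9%). APC, the scaffold that holds beta-catenin for destruction, stood at 20.7, 17.4 and 20.3 CPM in the controls and at 37.4, 37.9 and 32.6 CPM in the siFTO libraries, so that the log2 fold change was 0.89 (adjusted p = 0.000721 from edgeR). Replicate 6 was raised as replicates 4 and 5 were, and APC passed in 15 of 15 alternatives. TNKS2, which marks AXIN proteins for removal, rose by 0.58 on the log2 scale, also in 15 of 15, and FBXW11, a ligase subunit that recognises beta-catenin, by 0.42. NKD2, the relative of NKD1, went the other way, from 79.9, 87.7 and 77.4 CPM to 55.5, 61.0 and 66.5 CPM (-0.42, adjusted p = 0.00779 from edgeR), and the kinase CSNK1D fell by 0.31 on the log2 scale. The NKD2 estimate was -0.11 once length and GC content were corrected for (adjusted p = 0.353 from edgeR). FBXW11, NKD2 and CSNK1D did not pass without siFTO replicates 4 and 5, nor CSNK1D without control replicate 1 or siFTO replicate 4.

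Of 17 genes of beta-catenin and its nuclear partners, 16 were tested, 2 were higher and 6 were lower (all genes 19.5% and 17.9%). Beta-catenin itself (CTNNB1) stood at 272, 260 and 290 CPM in the controls and at 287, 304 and 318 CPM in the siFTO libraries and did not pass (0.14, 95% interval -0.042 to 0.33, adjusted p = 0.199 from edgeR). TLE4, a corepressor of TCF proteins, rose by 1.35 and BCL9L, a coactivator of beta-catenin, by 1.02 on the log2 scale, both in 15 of 15 alternatives. CTNNBIP1 (-0.57) and CBY1 (-0.54), both inhibitors that bind beta-catenin, and the corepressor TLE2 (-0.46) fell. The other lower genes, named after their values were seen, were TBL1X (-0.38), PYGO2 (-0.37) and TLE5 (-0.34). Their adjusted p was 0.0127, 0.00695 and 0.0149 from edgeR. Without replicates 4 and 5 none of the 6 lower genes passed, and TLE2 was also lost without control replicate 1 or 2 or siFTO replicate 4.

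Of 20 other Wnt target and crypt stem genes, 16 were tested, 6 were higher and 1 was lower (all genes 19.5% and 17.9%). The count of higher genes was 2 without any 1 of the controls and 3 without siFTO replicate 4. SLC12A2, an ion transporter found in crypt base cells, stood at 48.7, 44.5 and 62.3 CPM in the controls and at 115, 118 and 141 CPM in the siFTO libraries (1.26, adjusted p = 0.000367 from edgeR), and passed in 15 of 15 alternatives. TNFRSF19 (0.97) rose, with 9 of 15 alternatives passing and none of the fits without a control or without siFTO replicate 4 or 5. CDCA7 (-0.43) fell, but not past the threshold without control replicate 1 or 3 or without siFTO replicates 4 and 5. CD44 stood at 2.33, 2.41 and 1.76 CPM in the controls and at 212, 259 and 4.08 CPM in replicates 4, 5 and 6. Its log2 fold change of 6.22 thus rests on replicates 4 and 5. It was 0.93 without them (adjusted p = 0.0791 from edgeR), and CD44 also missed the threshold without any 1 of the controls (adjusted p of 0.0531 to 0.0582) and with limma voom (adjusted p = 0.158). The classical targets MYC (-0.21, adjusted p = 0.193) and CCND1 (0.14, adjusted p = 0.180) did not pass in edgeR. Other genes of the list did pass as higher and are named after their values were seen. They were EPHB2 (0.39, adjusted p = 0.00936), SOX9 (0.30, adjusted p = 0.0314) and ETS2 (0.28, adjusted p = 0.0181), all from edgeR. OLFM4, a marker of crypt base cells, was listed at 0 in all 6 libraries.

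Of 19 Wnt ligands, 10 were tested, 1 was higher and none was lower in edgeR (all genes 19.5% and 17.9%), with 3 lower at an unadjusted p under 0.05 and 2 by DESeq2 before adjustment. Counts at an unadjusted p, here and above, have no share over all genes beside them and show no departure from it. Of 6 genes of Wnt secretion and R-spondins, 2 were tested and 1 was higher. The 2 genes called, WNT7B (log2 fold change 3.68, adjusted p = 0.00540 from edgeR) and PORCN (1.29, adjusted p = 0.0274 from edgeR), overlapped between the groups. They are named after their values were seen. The call of WNT7B was lost with limma voom and without any 1 of the controls. That of PORCN was lost with DESeq2, with limma voom, without any 1 of the controls, and without siFTO replicate 4 or 5. The controls had 2.88 to 4.69 CPM of WNT7B, and replicates 4, 5 and 6 had 63.8, 78.6 and 4.45 CPM. PORCN, the enzyme that attaches the lipid to Wnt, had 11.5 to 12.5 CPM in the controls and 32.6, 44.1 and 9.91 CPM in those libraries. In replicate 6, WNT7B lay within the range of the controls and PORCN below it. Of 15 Wnt antagonists, 4 were tested and none passed in edgeR or DESeq2, also at an unadjusted p under 0.05 (0 genes). Without siFTO replicate 6, 6 passed the filter, and edgeR called 2 higher and 1 lower, against 3826 higher and 2928 lower of 16243 genes tested. In that fit a gene counted in replicates 4 and 5 alone can pass the filter, so a higher call there does not support a change. Corrected for length and GC content, 1 of 4 was called in each direction.

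**Figure D5:**
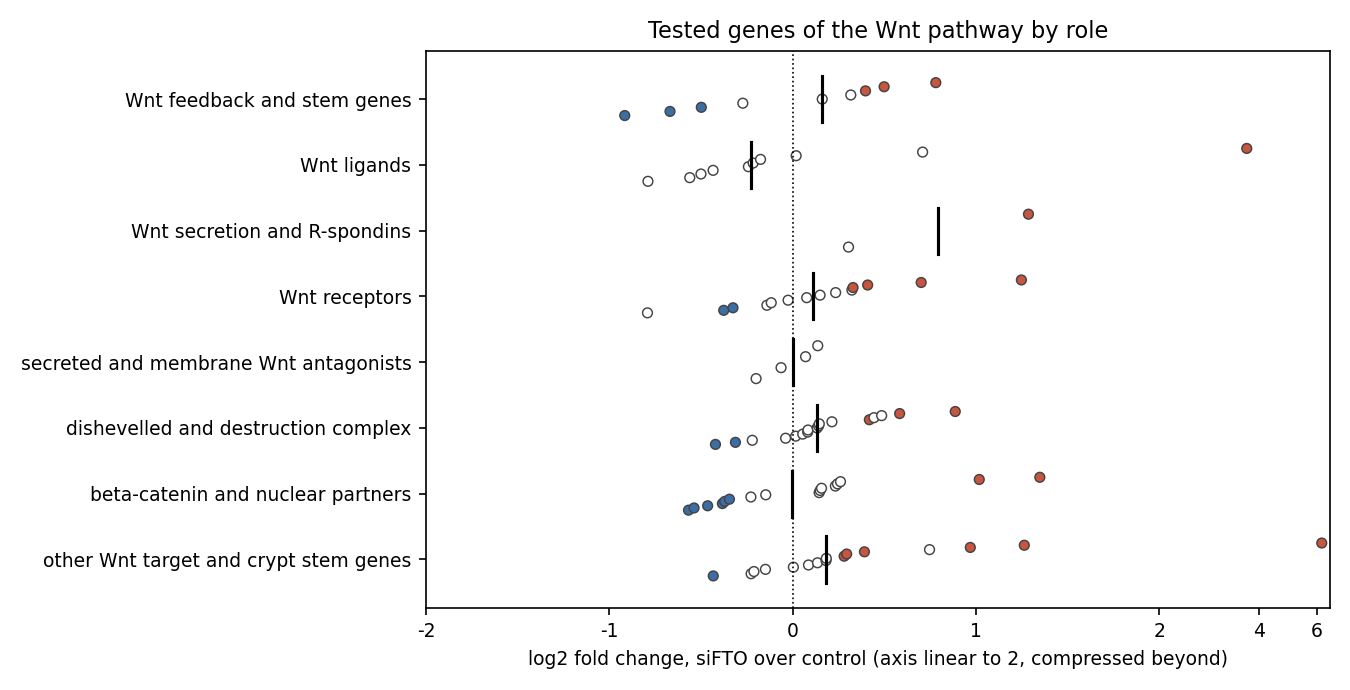
Log2 fold change of siFTO over control for each tested gene of the Wnt pathway, 1 row per role, on an axis that is linear to 2 and compressed beyond. Red points passed as higher, blue points as lower and white points did not pass, and the bar is the median of the row. The 9 tested feedback and stem genes split into 3 higher, 3 lower and 3 that did not pass, and the point at 6.22 is CD44.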

How the data were processed

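The authors deposited 1 file of raw counts per sample, whole numbers of reads per gene with no normalization and no rows for unassigned reads. TopHat2 2.0.11 and HTSeq are named in the submitters' notes, with hg19 and GRCh37 as builds. For the annotation release and the strand, the setting is not given in the sources used here. IDs were matched without version to symbols (56321 of 60483) and to GENCODE 29 on GRCh38 for positions, lengths and GC content (56753), so printed positions may differ from those used for counting. The 37 mitochondrial genes were listed at 0.

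In R 4.3.3, edgeR 4.0.16 was used with its filterByExpr filter (at least 10 counts, total of at least 15). It scaled libraries by TMM and tested 14965 genes with the quasi-likelihood test, two-sided, group as the only term, with Benjamini-Hochberg adjustment. Alternatives were other scalings and filters, DESeq2 1.42.0, limma 3.58.1 voom, leaving out each library, other thresholds and a loess correction for length and GC content. The genes, lists and tests were chosen with earlier results of these data known. Named genes are the 10, FTO, up to 3 genes per list and direction past the threshold without overlap and an average log2 CPM from 1 up, and up to 3 genes per marker list, and others are said to be named after their values were seen, or were named as the pathway's best known genes. The m6A data were not analysed here.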

Additional observations from a re-analysis of the deposited data

How the results depend on the processing

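Each tested member kept its direction in 15 alternatives except ASCL2, which turned from -0.27 to 0.15 once length and GC content were corrected for. That correction also left NKD1 (0.35), NOTUM (-0.37) and SP5 (-0.55) short of the threshold and 1 member lower. Leaving out siFTO replicates 4 and 5 gave 970 higher and 926 lower genes, 0 members lower, RNF43 at -0.35, TCF7 at 0.25, NOTUM at -0.70 and SP5 at -0.82, none past the threshold, and 9 higher and 0 lower pathway genes. Library totals alone gave 1787 lower genes, 30 higher and 6 lower pathway genes, FTO at -0.46 and NOTUM at -0.54, neither past the threshold (adjusted p of 0.0576 and 0.0538 from edgeR), and moved the median of all genes from 0.0057 to 0.13. Their split was 4088 higher to 1787 lower, against 2913 to 2684. An adjusted p under 0.01 gave 1411 higher and 1338 lower genes, 1 member higher, and 10 higher and 5 lower pathway genes. Leaving out 1 library gave 1383 to 3826 higher and 1589 to 2928 lower genes, 0 to 3 members higher and 1 to 3 lower, 8 to 24 pathway genes higher and 5 to 17 lower, with fewer samples in each fit. The log2 fold change then ran from -0.74 to -0.47 for FTO, 0.60 to 0.94 for LGR5, 0.37 to 0.63 for NKD1, 0.31 to 0.455 for TCF7, -0.85 to -0.47 for NOTUM and -0.98 to -0.81 for SP5. By CPM the order of control levels was RNF43 (place 1), AXIN2 (2), TCF7 (3), ASCL2 (4), NKD1 (5), LGR5 (6), NOTUM (7), LEF1 (8), SP5 (9) and ZNRF3 (10), and with the longest transcript as length LEF1 took place 8 and NKD1 place 9. The other causes were not tested. Of the tested members, SP5 and LEF1 had the fewest counts. No paired analysis was possible because the groups share no replicate numbers.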

Other observations

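Several Wnt genes were near silent in the controls and in siFTO replicate 6 and present in replicates 4 and 5, and are named after their values were seen. The ligand WNT5A had 388 and 518 counts in replicates 4 and 5, 1 count in replicate 6 and 0, 1 and 0 counts in the controls. The antagonist DKK1 had 93 and 108 counts in replicates 4 and 5 and no count in the other 4 libraries. The antagonist SFRP2 had 15 and 20 counts, the R-spondin RSPO3 had 16 and 22 and the beta-catenin partner PYGO1 had 13 and 23, and these 3 genes also had no count elsewhere. The receptor FZD8 had 32 and 31 counts in replicates 4 and 5, 3 in replicate 6 and 1, 2 and 2 in the controls. None of these genes passed the filter on low counts in the fit with all libraries. None of the 10 feedback and stem genes had this pattern, and ZNRF3 had 1, 4 and 4 counts in replicates 4, 5 and 6.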
